A study of Mus musculus with 3 samples.

Results

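Among the mouse miRNAs detected in matrix vesicles (MVs), 9 features carry names that no longer belong to an annotated miRNA gene: mmu-miR-5109, mmu-miR-720_v18.0, mmu-miR-5105, mmu-miR-714, mmu-miR-5097, mmu-miR-1196-5p, mmu-miR-1940, mmu-miR-712-5p and mmu-miR-696. They were chosen by 2 criteria, a detection call in at least 1 isolation and a name without a match in the gene annotation, so their detection is a description and not a finding. MVs were released from the matrix that MC3T3-E1 cells, an established mouse osteoblastic line, had laid down, with 500 units/mL collagenase and ultracentrifugation. According to the methods of the study, miRNAs were extracted from MVs 3 times independently, and each extraction is called an isolation here. Whether the 3 came from separate cultures or MV preparations is not stated. The labels state that the osteogenic medium contained β-glycerophosphate, whereas the methods of the study state that MVs came from cultures without it. Total RNA of each isolation (100 ng) was labeled with Cy3 and hybridized to 1 mouse miRNA microarray, which gave 3 arrays of 1 group, and no arrays of cells or of a second condition were used here. The isolations are numbered by the sample titles, while the source names give replicate 1 for all 3. The values are total gene signals, the linear intensity that the scanner software assigned to each miRNA, with an error on the same scale and a detection call.

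A miRNA is a short single-stranded RNA that is cut from a hairpin precursor by the enzymes Drosha and Dicer and guides Argonaute proteins to complementary mRNAs through its seed, the bases near its 5′ end. Names are given to candidate miRNAs from small RNA sequencing and are withdrawn when the reads turn out to match pieces of other abundant RNAs, such as tRNA, rRNA or repeats, rather than a hairpin. Array probes designed against an earlier list keep measuring whatever RNA hybridizes to them after the name has been withdrawn. MVs are the vesicles that osteoblasts and chondrocytes release into their matrix and in which mineral first forms.

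Of the 1079 mouse miRNA features on the array, 31 had names that matched no mouse gene listed by RefSeq for the GRCm38.p6 assembly, and 20 of these were not detected in any isolation. The remaining 11 were the 9 features described here and 2 that were not included, namely miR-3102-5p.2-5p, whose mature sequence is in the RefSeq miRNA table, and miR-466a-5p, which belongs to a large family with current genes. Neither was detected in isolation 1. In isolation 3 their signals were 8.53 and 4.41. In total, 180 mouse miRNAs (16.7%) were detected in at least 1 isolation and 84 (7.78%) in all 3. The mature sequences of 867 mouse features were found in the RefSeq table, and 0 of the 9 names were among them. What RNA the 9 probes bound was not tested, since the arrays carry no features named for tRNA, rRNA or repeats.

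The mature sequences of the miRNAs most alike in course, from the RefSeq table of GRCm38.p6, are shown because these annotated miRNAs varied over the isolations most like miR-720 (miR-3963 and miR-5100), miR-5105 (miR-1224-5p and miR-370-3p), miR-714 (miR-1224-5p and miR-1896), miR-5109 (miR-3098-5p and miR-3472) and miR-1196-5p (miR-3072-5p and let-7i-5p). The choice of these miRNAs rests on distances mostly smaller than the array errors, as given below. The sequences are written 5′ to 3′ with the seed (bases 2 to 8) in capitals.
miR-3963: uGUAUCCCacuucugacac
miR-5100: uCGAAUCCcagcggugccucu
miR-1224-5p: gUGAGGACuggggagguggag
miR-370-3p: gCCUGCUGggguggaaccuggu
miR-1896: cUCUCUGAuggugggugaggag
miR-3098-5p: uCCUAACAgcaggaguaggagc
miR-3472: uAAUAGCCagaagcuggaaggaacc
miR-3072-5p: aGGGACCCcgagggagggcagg
let-7i-5p: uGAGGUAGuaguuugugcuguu
The 9 seeds all differ from each other. miR-3963 lies at chr3:151023839-151023857 on the minus strand, and miR-5100 and miR-1224-5p lie at chr11:60728698-60728718 and chr16:20604452-20604472 on the plus strand. GC content ranged from 40.9% in let-7i-5p to 77.3% in miR-3072-5p. G made up 13 of the 21 bases of miR-1224-5p, 12 of 22 in miR-3072-5p and 10 of 22 in both miR-370-3p and miR-1896. It made up 8 of 22 in let-7i-5p, 7 of 22 in miR-3098-5p and 7 of 25 in miR-3472. The lowest counts were 5 of 21 in miR-5100 and 2 of 19 in miR-3963. The 2 miRNAs shown thus differed in count for miR-1196-5p, miR-720, miR-5105 and miR-714, and both held 7 for miR-5109. How common each count is among the 867 features with a sequence was not tested. The longest run of letters shared by miR-3963 and miR-5100 was AUCCCA, on the given strand, and the only other features with it among the 867 with a sequence were miR-191-5p and miR-3968 (0.461% with it). miR-5100 also holds UCGAAUCC, letters common in the T arm of tRNAs, as 1 of the 867 (0.115%). Among the 56 of the 867 that were detected in all 3 isolations, as miR-3963 and miR-5100 were, the shares were higher. There the first run was in 3 (5.36%) and the second in 1 (1.79%). These letters were chosen after the sequences were seen, and a match is a description of the sequence and not of its origin.

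Isolation 1 stood apart from the others. There, 86 mouse miRNAs passed detection, fewer than the 179 of isolation 2 or the 164 of isolation 3. In the 85 miRNAs detected in both isolations 1 and 2, the median signal difference was 1.34 log2 units in favor of isolation 2. Of the 14 positive control features, 10 were detected on all arrays, of which 8 were higher and 2 lower in isolation 2 than in isolation 1. The features dmr_3 and dmr_6 were the 2 lower ones, with differences of -1.63 and -1.67 log2 units. Among the 8 higher ones, dmr_285, dmr_31a and miRNABrightCorner30 differed by only 0.10, 0.41 and 0.45. The hur features and mr_1 differed by 1.33 to 2.71, so the controls did not share 1 shift. The 8 miRNAs listed here for mesenchymal cells (miR-125b-5p, miR-21a-5p, miR-22-3p, miR-29a-3p, miR-199a-3p, miR-199a-5p, miR-214-3p and let-7c-5p) were all detected in isolations 2 and 3 and 6 of them in isolation 1, with 0.887%, 4.15% and 3.82% of the detected signal in isolations 1, 2 and 3. Among lists for other cell types, no miRNA of leukocytes (0 of 5), neurons (0 of 3), liver (0 of 1) or red blood cells and serum (0 of 2 on the array) was detected, whereas miR-206-3p, 1 of 3 muscle miRNAs, was detected in all 3 isolations. The part of these differences between the arrays in the values below was not tested.

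Of the 9 features, 5 were detected in all 3 isolations, 3 in isolations 2 and 3 only, and miR-696 in isolation 2 only. Among all 180 detected miRNAs, 46.7% were detected in all 3. Among the other 171, 79 were detected in all 3 isolations and 77 in isolations 2 and 3 only. The 9 ranged from the brightest mouse miRNA feature of each array, miR-5109, to features at the limit of detection. In 3 of the 4 incomplete cases isolation 1 alone lacked a detection.

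**Figure D1:**
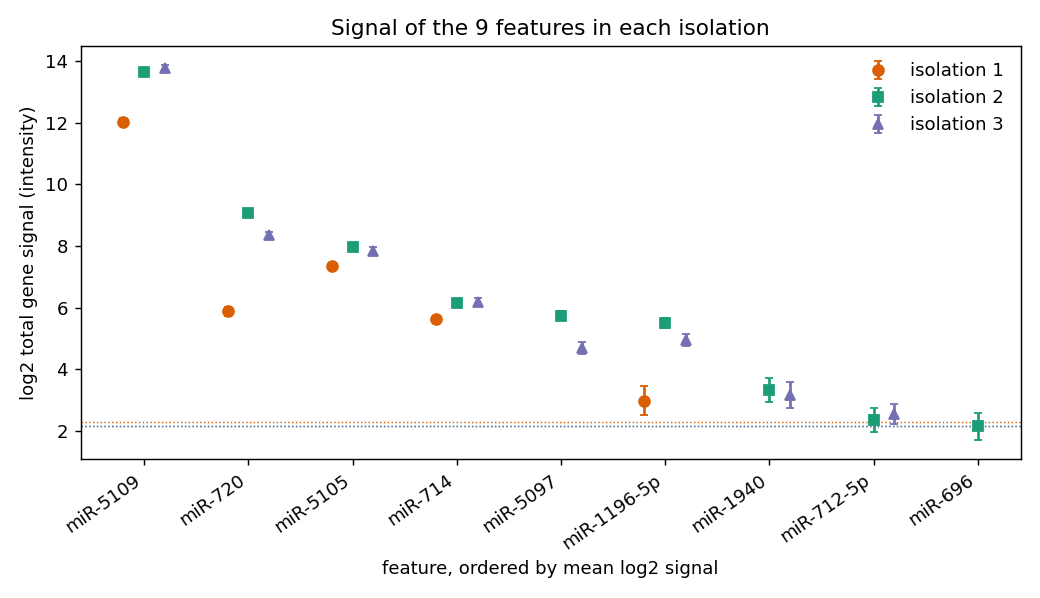
Log2 total gene signal (y axis) of the 9 features (x axis, ordered by mean log2 signal) in isolations 1, 2 and 3. Bars are the error of each array's signal, dotted lines are the lowest detected mouse miRNA signal of each array, and a missing symbol is an isolation without detection. miR-5109 lies far above the other 8, and miR-720 changes places with miR-5105 in isolation 1.

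miR-5109 was the brightest mouse miRNA feature in each of the 3 isolations. The signals of 4194, 12973 and 14058 in isolations 1, 2 and 3 correspond to log2 signals of 12.03, 13.66 and 13.78 (13.16 ± 0.98, SD, n = 3). The array error of each value was close to 0.11 log2 units. As deposited, the step between isolations 1 and 2 (1.63 ± 0.16, combined array error) was about 10 times its error. The deposited step between isolations 2 and 3 (0.12 ± 0.16) was within its error. After normalization to the median or 75th percentile of shared miRNAs, the first step was close to 0 (0.089 and -0.000435). The second was then 0.356 and 0.452, larger than the error of 0.16. The next brightest miRNA was miR-5126 in isolation 1 and miR-3963 in isolations 2 and 3, and miR-5109 was 2.36, 2.18 and 4.02 times as bright as these, respectively. No other mouse miRNA had a mean signal within 1 log2 unit of it. Probes differ in their response, so these are orders of signals and not of RNA amounts.

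As a share of the summed signal of all detected mouse miRNAs, miR-5109 held 30.9%, 30.5% and 40.0% in isolations 1, 2 and 3 (33.8% ± 5.33, SD, n = 3). The sum of all other detected miRNAs was 9364, 29506 and 21121. In isolation 2 this sum was higher than in isolation 1 by 1.66 log2 units, near the 1.63 of miR-5109, and the share was similar. Between isolations 3 and 2 the sum differed by -0.48 log2 units and miR-5109 by 0.12, within its error, and the share was higher.

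The other 8 features together held 2.05%, 2.29% and 1.99% of the signal (2.11% ± 0.160, SD, n = 3). All 9 made up 33.0%, 32.8% and 42.0% (35.9% ± 5.22), of which miR-5109 supplied 93.0% to 95.3%. By number the 9 were a small part of the detected names, 5.81%, 5.03% and 4.88% in isolations 1, 2 and 3. With miR-5109 left out of both the features and the sum, the others held 3.20% as a mean of the isolations.

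**Figure D2:**
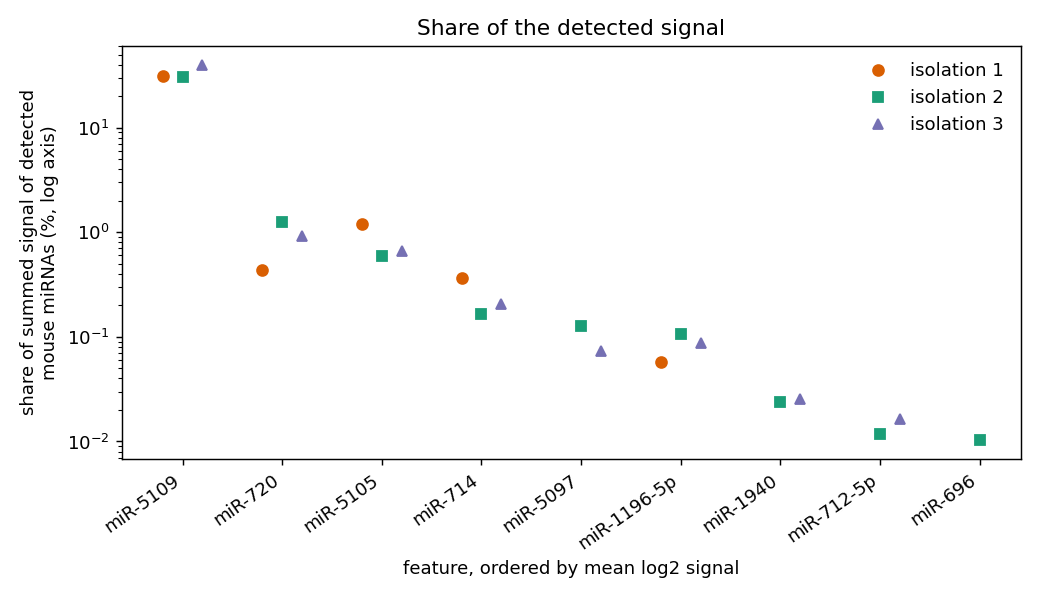
Share of the summed signal of detected mouse miRNAs (y axis, percent, logarithmic) held by each of the 9 features (x axis) in each isolation. miR-5109 holds 30.5% to 40.0%, and each of the other 8 holds 1.26% or less.

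The feature for miR-720, a name known from a fragment of a threonine tRNA, was detected in all 3 isolations. Its name on the array carries a version suffix, and of the 8 mouse features with such a suffix it was the 1 that was detected. Its signal was 58.8, 533 and 325 in isolations 1, 2 and 3, which are log2 signals of 5.88, 9.06 and 8.35 (7.76 ± 1.67, SD, n = 3). Isolation 1 was far below the others. Ranked by signal, the feature held places 25, 12 and 13 on the 3 arrays, with shares of 0.434%, 1.26% and 0.925%.

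For miR-5105 the signals were 163, 252 and 231, which are log2 signals of 7.34, 7.98 and 7.85 (7.72 ± 0.33, SD, n = 3). Its SD over the isolations was the 14th smallest of the 84 miRNAs detected in all 3, whose other 79 had a median SD of 0.73. Unlike miR-720, it stood higher among the detected miRNAs of isolation 1 (place 13) than in isolation 2 (21) or 3 (18), with shares of 1.20%, 0.593% and 0.656%. The mean log2 signals of miR-720 and miR-5105 were nearly equal, at 7.76 and 7.72, but miR-720 was 1.47 log2 units below miR-5105 in isolation 1 and 1.08 and 0.50 above it in isolations 2 and 3. The mean difference of 0.04 ± 1.33 (SD, n = 3) does not order them.

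miR-714, together with miR-712, has been described in calcifying mouse vascular smooth muscle cells. The signals of miR-714 were 49.1, 70.2 and 72.5, which are log2 signals of 5.62, 6.13 and 6.18 (5.98 ± 0.31, SD, n = 3), and its SD was the 10th smallest of the 84. These small SDs of miR-5105 and miR-714 hold for the signals as deposited, since after the normalizations other than the 90th percentile isolation 2 differed from isolation 1 by -0.91 to -0.996 for miR-5105 and -1.02 to -1.21 for miR-714. Its share of the signal was 0.362% in isolation 1 and 0.165% and 0.206% in isolations 2 and 3. Within each isolation miR-714 was below miR-5105, by 1.73, 1.84 and 1.67 log2 units. These differences have an SD of 0.089, the smallest of the 10 pairs among the 5 features and singled out after the values were seen, which is smaller than the combined array error of each of them (0.157 to 0.162). The median SD of such a difference over the 3486 pairs of the 84 miRNAs was 0.55, and 0.11 was its 5th percentile.

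miR-1196-5p was the dimmest of the features detected everywhere. Its signals were 7.82, 45.2 and 31.0, which are log2 signals of 2.97, 5.50 and 4.95 (4.47 ± 1.33, SD, n = 3). In isolation 1 its error was 32.6% of the signal, and no detected mouse miRNA of that array had an error above 33.1%, so this value lies just inside the detection limit. In the order of mean signals of the 5 features detected in all isolations (miR-5109, miR-720, miR-5105, miR-714, miR-1196-5p), miR-720 and miR-5105 were the 1 neighboring pair whose order was not the same in all 3 isolations.

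The remaining 4 features were not detected in isolation 1, where the lowest detected signal was 4.87. For miR-5097 the signals were 53.4 and 25.7 in isolations 2 and 3. These were 11.0 and 5.27 times the lowest detected signal of isolation 1. For miR-1940 the signals were 10.0 and 8.89, with errors of 27.1% and 29.1%, 2.05 and 1.82 times that lowest signal. The lowest detected signal of an array is not a limit that holds for each probe, since miR-1196-5p was just inside detection at 7.82, and the ratios include the difference between the arrays (a median of 1.34 log2 units for isolation 2). They are therefore no bounds on a change, and for miR-1940 no difference beyond that of the array is shown.

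miR-712-5p, a name known from a spacer of the precursor rRNA and from endothelium under disturbed flow, had signals of 5.03 and 5.82 in isolations 2 and 3. Both values were close to the lowest detected signal of isolation 1, at 1.03 and 1.19 times that signal. Since that signal is not a limit for this probe, whether the level of miR-712-5p was lower in isolation 1 is not known. The feature for the other strand of its hairpin, miR-712-3p, was not detected in any isolation. The feature miR-762, which was described with miR-712 and miR-714 in calcifying smooth muscle cells and is named here after its values were seen, was at a similar level, with signals of 4.87 and 5.14 in isolations 1 and 2 and no detection in isolation 3.

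miR-696, described in skeletal muscle during exercise, was detected in isolation 2 alone. Its signal of 4.39 was the lowest of the 179 detected mouse miRNAs of that array, with an error of 30.4%. Just outside detection, undetected features all carry a signal of 0.1 in place of a level. The lowest detected signal of isolation 1 was above that of miR-696, as was the 4.41 of isolation 3, so no fold between isolations can be given.

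The 3 names with the highest numbers lie in the range from miR-5097 to miR-5109, chosen for description after the values were seen. This range has 13 features on the array, and 3 of the 10 that are not in the set (miR-5100, miR-5103 and miR-5107-5p) were detected, 2 of them in all 3 isolations. miR-5100 had log2 signals of 6.56, 9.70 and 9.10, and miR-5107-5p of 5.13, 6.04 and 5.72.

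The error that the scanner software gave to each of these signals was compared with the other detected mouse miRNAs within 1 log2 unit on the same array. miR-5109 had no such neighbors, and the errors of the other 8 all lay inside the ranges of theirs. miR-5105 had errors of 7.47%, 7.30% and 7.34% of its signal, with medians of 7.53%, 7.78% and 7.70% for its neighbors in signal. miR-714 had 8.36%, 8.03% and 8.02%, below the medians of 11.2%, 9.02% and 9.61%. miR-720 had 10.5%, 8.59% and 8.65%, above the medians of 9.71%, 7.80% and 7.62% but inside their ranges. miR-1196-5p in isolation 1, at 32.6% against a median of 26.7%, was above 23 of its 24 neighbors. The errors of miR-1940 (27.1% and 29.1%) were also above the medians of its neighbors (21.1% and 24.8%) and inside their ranges.

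**Figure D3:**
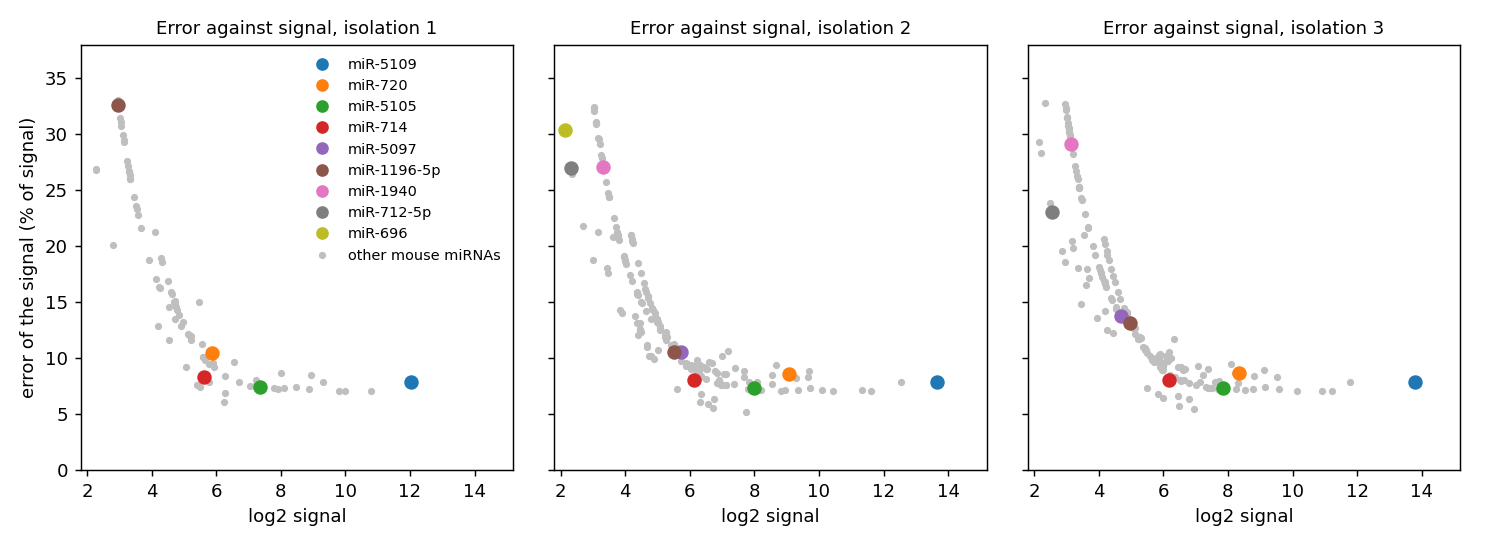
Error of the total gene signal as a percent of the signal (y axis) against log2 signal (x axis) for each detected mouse miRNA in isolations 1, 2 and 3. The 9 features (colored) lie on the same falling course as the other miRNAs (grey), with miR-5109 at 7.84% to 7.92% and miR-1196-5p at 32.6% in isolation 1.

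The differences between isolations were then set against the other miRNAs. Signals are as deposited, with no normalization between arrays, so each difference is read against the median of the other mouse miRNAs detected in the same 2 arrays. This distance from the median is not changed by a shift of a whole array, whereas the sign of the difference itself is, as with miR-5105 and miR-714, which were higher in isolation 2 than in isolation 1 as deposited and lower after each of the 4 normalizations tried. For isolation 2 minus isolation 1, the 80 other miRNAs had a median of 1.34 log2 units (quartiles 0.81 and 1.98). The 5 features detected in both had a median of 1.63, and 3 of the 5 were at least 2-fold higher in isolation 2, against 68.2% of all 85 miRNAs detected in both. The share of the 5 was thus near that of the whole array.

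Within the group the features fell on both sides. miR-720 was higher in isolation 2 by 3.18 ± 0.20 log2 units (combined array error) as deposited. It was lower only after the 90th percentile normalization, which made all 5 features lower. Its difference was 1.84 above the median of the others and the 9th highest of 85. The 14 other miRNAs within 1 log2 unit of it in mean signal had a median of 1.27, and 13 of them had smaller differences. miR-1196-5p was higher by 2.53 ± 0.49, again with a turned sign only after the 90th percentile normalization, and its difference was 1.19 above the median and above those of all 28 others within 1 log2 unit, whose highest was 2.37. The margin over the highest is smaller than its error, which comes mostly from isolation 1.

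miR-714 and miR-5105 lay on the other side, with differences of 0.52 ± 0.17 and 0.63 ± 0.15 log2 units, 0.82 and 0.70 below the median of the others. Of the 38 other miRNAs near miR-714 in signal, 36 had larger differences, and of the 13 near miR-5105, 10 had. miR-5109, at 1.63 ± 0.16, was 0.29 above the median, less than 2 times its error. Since it has no neighbors within 1 log2 unit, it was set beside the 10 nearest miRNAs in signal, up to 4.70 log2 units dimmer, which had a median of 1.25 and of which 8 were below it. There is 1 array for each isolation, so these differences have array errors but no replicate check and were not tested.

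**Figure D4:**
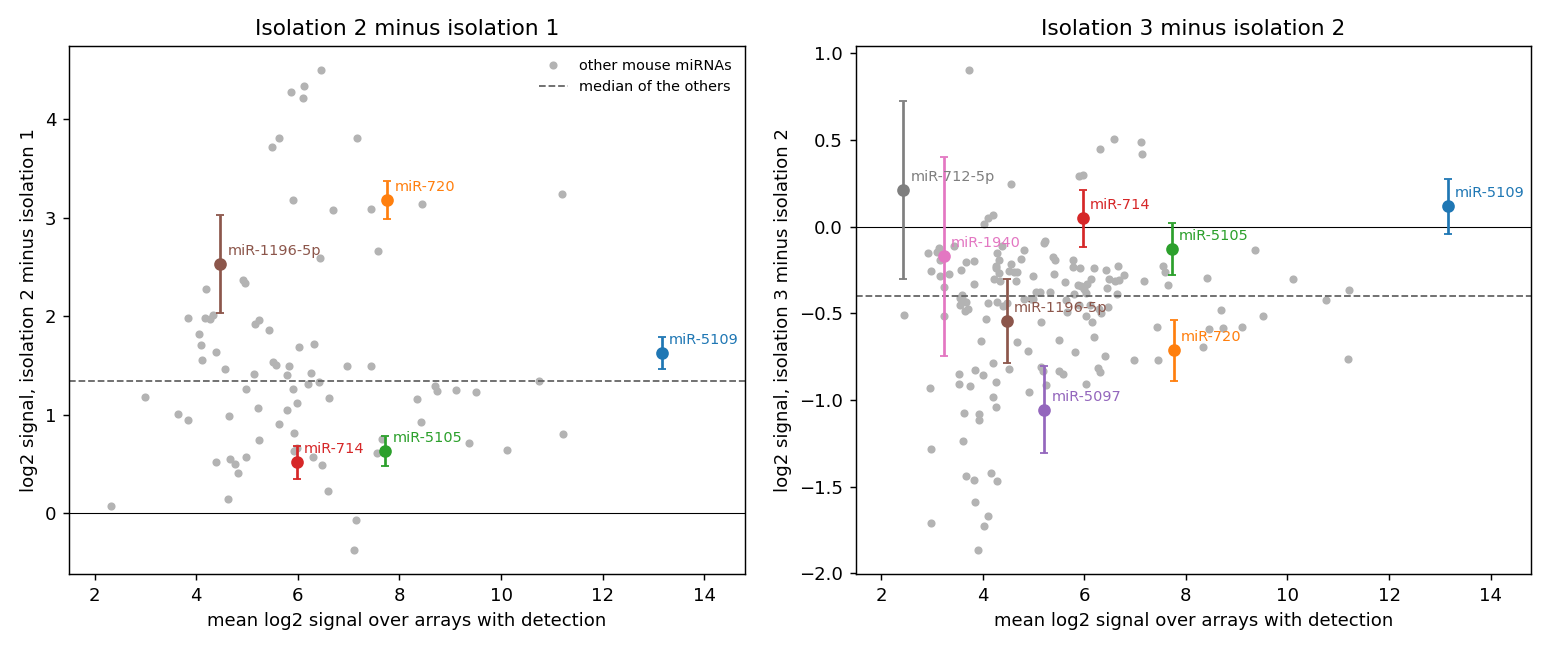
Difference in log2 signal between isolations (y axis; left, isolation 2 minus 1; right, isolation 3 minus 2) against mean log2 signal over the arrays with detection (x axis). Colored points are the 9 features where both arrays detected them, with the combined array error as bars, grey points are the other mouse miRNAs, and the dashed line is their median (1.34 and -0.40). On the left, miR-720 and miR-1196-5p lie above the line and miR-714 and miR-5105 below it.

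Isolations 2 and 3 were much more alike. For isolation 3 minus isolation 2, the 156 other miRNAs had a median of -0.40 log2 units, and 145 of them were lower in isolation 3. Of the 8 features detected in both, 5 were lower as deposited and 3 after each normalization tried, and 1, miR-5097, was at least 2-fold lower as deposited, against 9.76% of all 164 miRNAs detected in both. miR-5097 differed by -1.06 ± 0.25 as deposited and by -0.53 to -0.82 after the 4 normalizations, under 2-fold in each, and lay 0.65 below the median, and 67 of the 68 other miRNAs within 1 log2 unit of it had a smaller drop or none. Its level in isolation 1 is not known, so its course over the 3 isolations is incomplete.

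miR-5109, miR-714 and miR-712-5p were the 3 features with positive differences as deposited (0.12 ± 0.16, 0.05 ± 0.16 and 0.21 ± 0.51), each within its error of 0. The first 2 lay 0.52 and 0.45 above the median of the others, over 2 times their errors. Of the 57 miRNAs near miR-714 in signal, 53 had lower differences. miR-5105 (-0.13 ± 0.15), miR-1940 (-0.17 ± 0.57), miR-1196-5p (-0.55 ± 0.24) and miR-720 (-0.71 ± 0.18) were all within 2 errors of the median.

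The likeness in course behind the sequences given above was measured for each of the 5 features detected everywhere. The measure was the root mean square difference of log2 signals after each miRNA was centered on its own mean, over 3 arrays and among the 79 other miRNAs detected in all of them. A course has 3 values, so a small value by this measure is a description of these arrays. The array errors of the 5 features were 0.105 to 0.470 log2 units, at or above most of the distances. The order of the nearest miRNAs is therefore within array error and not settled. miR-720 was closest to miR-3963 (0.026 log2 units) and miR-5100 (0.050). miR-5109 was closest to miR-3098-5p (0.059) and miR-3472 (0.070), both over 8 log2 units dimmer in each isolation.

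Among the other miRNAs, with the 9 features themselves left out, miR-5105 and miR-714 shared miR-1224-5p as the most similar, at 0.036 and 0.090 log2 units. The second was miR-370-3p for miR-5105 (0.053) and miR-1896 for miR-714 (0.092). miR-1196-5p was closest to miR-3072-5p (0.080) and let-7i-5p (0.154), a member of the let-7 family, which is known as a brake on cell proliferation and a mark of differentiated cells. Among the 8 mesenchymal miRNAs, those detected in both arrays had a median difference of 4.04 log2 units between isolations 2 and 1, above that of each of the 5 features.

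**Figure D5:**
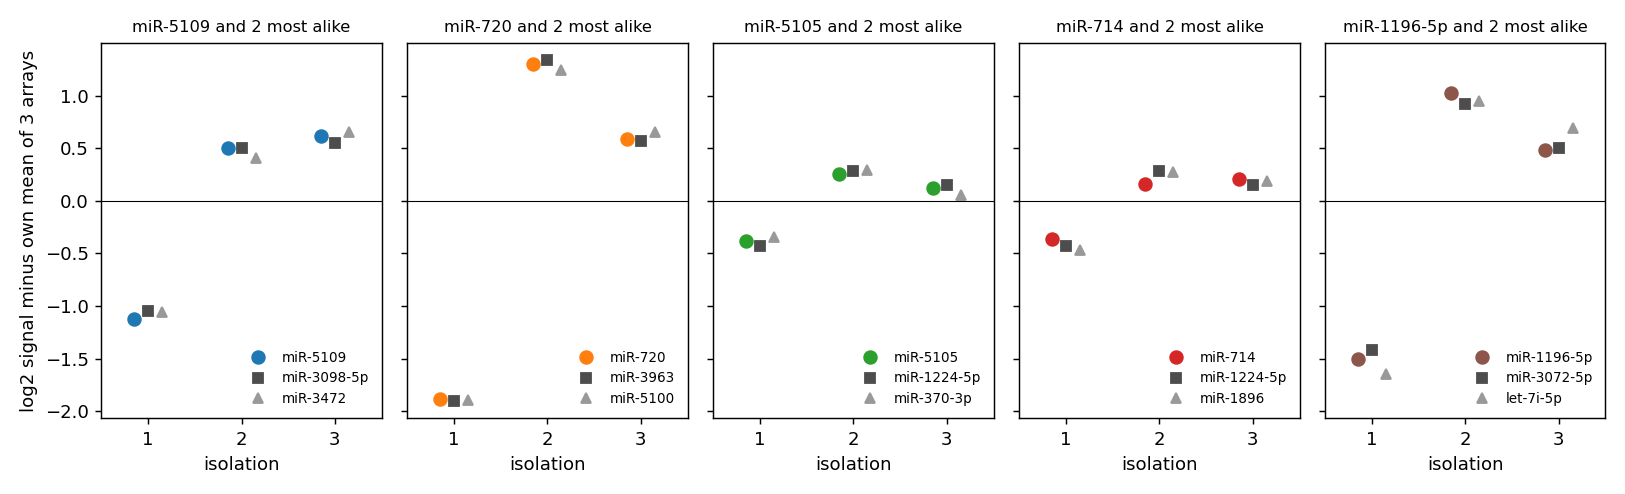
Log2 signal minus the feature's own mean of the 3 arrays (y axis) in isolations 1, 2 and 3 (x axis) for each of the 5 features detected in all isolations (colored circles) and the 2 miRNAs most alike in course (grey squares and triangles). As deposited, the differences between isolations are widest for miR-720 and narrowest for miR-714 and miR-5105, whereas after normalization to the median of shared miRNAs miR-5109 has the smallest difference between isolations 2 and 1 (0.089).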

How the data were processed

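Per the labels and the methods, total RNA of each isolation was labeled with Cy3 and hybridized to a SurePrint G3 mouse miRNA microarray, and the files deposited for the 3 arrays give each feature's intensity (total gene signal, linear scale) with an error and a detection call, made by the authors with Agilent Feature Extraction 10.10.1.1 and taken here as deposited, with no normalization between arrays. The deposited tables hold 1157 features, of which 1079 are mouse miRNAs. Undetected features all hold the signal 0.1 with error 1. Arrays were checked for identical signals, and 0 were found. With 3 arrays, the precision of every mean is limited.

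Signals were put on a log2 scale where detected. Errors of log2 signals were taken to first order, and errors of differences were combined as the root of summed squares. Shares are percents of the summed signal of detected mouse miRNAs. Names were matched to RefSeq genes by symbol and synonym, without arm and version suffix, and miRNA sequences by name. The array tables name no assembly. The members and lists were chosen with earlier results of these data known. Named miRNAs are the 9 members, the 2 most alike in course, neighbors in signal, other-arm features, features with a version suffix and marker lists. No test was made, since the arrays form 1 group. Alternatives were other detection rules, denominators, normalizations and bands of signal, and each isolation left out. The functions were tested on simulated data. Computations used numpy 2.4.6 and pandas 2.3.3 in Python 3.11.15, and figures matplotlib 3.10.9.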

Additional observations from a re-analysis of the deposited data

How the results depend on the processing

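The number of features detected in all isolations, 5, was 5 to 8 when single isolations were dropped (8 without isolation 1). It was also 5 with a signal over 3 times its error. Every deposited detection already had an error of 33.1% of its signal or less, so this rule could not change the count. The summed share, 35.9%, was 37.4% over miRNAs detected in all arrays, 35.5% with viral features and 3.20% without miR-5109.

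The difference between isolations 2 and 1 depended on the normalization. The median of the 5 features, 1.63 log2 units, was 0.089 after the median of the 84 shared miRNAs was subtracted, -0.000435 after their 75th percentile, -6.40 after the 90th percentile of all mouse features and 0 after quantile normalization, which took 1.54, 1.63, 8.03 and 1.54 log2 units, respectively, from the median of all miRNAs. In each of these settings the median was the value of miR-5109, the brightest feature on every array. Quantile normalization gives the brightest shared miRNA the same value on every array, so its result of 0 was fixed in advance. With the lowest detected signal put in for undetected ones, the median over the 9 features was 1.04. The 90th percentile of isolation 1 fell on undetected features. By subtraction of the median, the 75th and the 90th percentile and by quantile normalization, miR-5105 was -0.91, -0.996, -7.40 and -0.94, and miR-714 was -1.02, -1.11, -7.52 and -1.21. miR-5109 was -0.000435 and -6.40 after the percentiles. Only the 90th percentile turned the sign of miR-720 (-4.85) and miR-1196-5p (-5.50).

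The median between isolations 3 and 2, -0.15, was 0.090, 0.186 and 0.378 after the first 3 normalizations, 0.042 after quantile normalization and -0.13 with the lowest detected signal put in. The difference of miR-5097, -1.06, was -0.82, -0.72, -0.53 and -0.73 after the 4 normalizations and lost its 2-fold size. When an isolation was dropped, the mean log2 signals of miR-720 and miR-1196-5p moved by an amount over 1.5-fold on the linear scale. For miR-720 the mean log2 signal of 7.76 went to 8.70 without isolation 1 and 7.11 without isolation 2. For miR-1196-5p it went from 4.47 to 5.22 without isolation 1. With the lowest detected signal put in, miR-5097 moved to 4.24 and miR-1940 to 2.92.

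No paired analysis was possible because all arrays belong to 1 group. Signals without a detection call give no level, which limits miR-1940, miR-712-5p and miR-696 most.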
